A study of Mus musculus with 12 samples.

Results

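Selenbp1 and Selenbp2 are the 2 selenium-binding protein genes of the mouse, and their expression in liver was followed here in every library of a calorie restriction experiment. The rows of the deposited expression table that carry the symbols Selenbp1 and Selenbp2 were taken, which gave 2 of the 24537 genes listed. Both passed the filter on low values and belong to the 10593 genes tested. The pair was chosen because the values of these same libraries had drawn attention to it, so the levels of the 2 genes are described below without a test.

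Liver RNA was sequenced from 12 male C57Bl/6J mice, a standard inbred strain, which were 6 weeks old when the diets began and were caged singly. Con mice ate ad libitum, and mice under calorie restriction (CR) received 30% less food. Con and CR mice were taken at day 25 and at day 30, with 3 mice in each of the 4 groups. Libraries are called here by their column names, Con7 to Con9 and CR7 to CR9 at day 25 and Con10 to Con12 and CR10 to CR12 at day 30. All mice drank heavy water before they were killed, and CR mice were given a fortified form of the control diet. Whole liver was used, so fewer cells of a type and less RNA per cell cannot be told apart.

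Selenium-binding proteins are cytosolic proteins that were first found by the selenium they hold. They are not selenoproteins, since selenium is not built into them as selenocysteine. SELENBP1 is a methanethiol oxidase, an enzyme that breaks down a sulfur-containing gas from gut bacteria and from methionine, with hydrogen sulfide, hydrogen peroxide and formaldehyde as products. Mouse Selenbp2 was described in liver as a protein that binds acetaminophen, and its mRNA is known to be more abundant in male than in female liver. Humans have a single gene of this family, SELENBP1.

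The genes lie on the same strand of chromosome 3 in mm10. The table places Selenbp2 (NM_019414) at chr3:94693573-94704406 and Selenbp1 (NM_009150) at chr3:94933083-94944758, both on the plus strand, with 228.7 kb and 3 other genes between them. The exon lengths that the table used were 1681 bases for Selenbp2 and 1671 bases for Selenbp1. In the GENCODE M21 annotation of the same build (GRCm38), each gene has 12 exons and a coding sequence of 1416 bases, which is 472 codons and a stop codon. The transcripts of 1712 bases for Selenbp1 and 1719 bases for Selenbp2 could be aligned over 1712 bases, of which 1687 (98.5%) were identical. In the coding part 1398 of 1416 bases (98.7%) were identical, so 18 bases told the genes apart there. Exons 8 and 10 carried no difference at all. Exon 5 carried 4 differences in 121 bases and exon 12 carried 7 in 353 aligned bases.

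A coding stretch of 100 bases that spans exons 4 and 5 shows how little separates the genes where they differ most. No stretch of this length held more than 4 differences, and capitals mark the 4 bases that are not the same. The stretch runs over the spliced exons between chr3:94937383-94938043 in Selenbp1 and chr3:94697480-94698131 in Selenbp2.
Selenbp1: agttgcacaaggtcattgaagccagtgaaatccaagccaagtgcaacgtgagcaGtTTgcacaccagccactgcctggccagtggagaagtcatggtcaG
Selenbp2: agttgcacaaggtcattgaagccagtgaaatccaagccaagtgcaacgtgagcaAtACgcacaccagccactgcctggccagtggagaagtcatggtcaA

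The longest stretch without any difference was 193 bases, from the end of exon 7 through exon 8 into exon 9. A read of 100 bases that lies wholly inside it carries no base that assigns it to one gene. It is spliced from chr3:94940226-94942737 in Selenbp1 and from chr3:94700116-94702593 in Selenbp2, and it carries no capitals because no base differs.
Both genes: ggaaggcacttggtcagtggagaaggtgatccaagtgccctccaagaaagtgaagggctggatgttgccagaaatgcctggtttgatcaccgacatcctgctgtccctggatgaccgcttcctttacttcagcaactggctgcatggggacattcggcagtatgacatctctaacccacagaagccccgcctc

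Reads were 100 bases long, so windows of that length were compared between the transcripts. The reads were paired, and the windows take no account of the mate. Of the 1613 windows of Selenbp1, 344 (21.3%) occurred unchanged in Selenbp2. With 1 mismatch allowed the share was 66.8%, and with 2 it was 88.7%. No window of Selenbp1 was more than 4 mismatches away from Selenbp2. BWA does not split reads at introns, so the windows that lie inside 1 exon matter more. They made up 36.7% of all Selenbp1 windows, and 19.3% of them occurred unchanged in Selenbp2. No other annotated gene shared as few as 31 consecutive bases with either transcript. Reads of the pair could therefore be confused with each other, and no other annotated gene offers a match of that length. How reads that fit both genes were treated by the authors is not given in the sources used here.

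**Figure D1:**
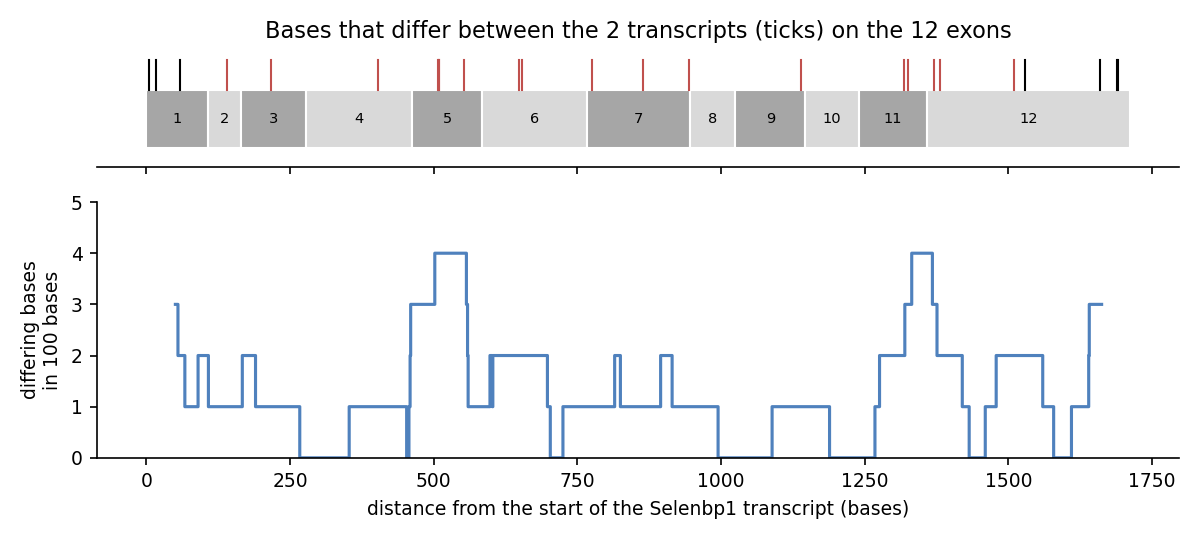
Positions of the differing bases along the transcripts. The upper panel shows the 12 exons of Selenbp1 to scale with a tick for each differing base (red in the coding part, black outside it), and the lower panel gives the number of differing bases in windows of 100 bases, centred at the distance from the transcript start on the x axis. The count stays between 0 and 4 and lies at 0 around exon 8.

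The stretches just before the transcription start were also close. In the RefSeq promoter table (GRCm38.p6), 208 of 221 aligned bases (94.1%) were identical. The sequences are shown because the 2 genes went in opposite directions under CR, as described below. They cover chr3:94932833-94933055 before Selenbp1 and chr3:94693323-94693555 before Selenbp2, both on the plus strand and cut where the GENCODE transcript begins. Capitals mark bases that differ from the other gene or are absent from it.
Selenbp1: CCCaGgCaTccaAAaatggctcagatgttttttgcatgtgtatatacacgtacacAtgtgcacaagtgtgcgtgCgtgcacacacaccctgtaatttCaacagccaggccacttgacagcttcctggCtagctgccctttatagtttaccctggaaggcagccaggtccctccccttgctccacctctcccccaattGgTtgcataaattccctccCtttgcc
Selenbp2: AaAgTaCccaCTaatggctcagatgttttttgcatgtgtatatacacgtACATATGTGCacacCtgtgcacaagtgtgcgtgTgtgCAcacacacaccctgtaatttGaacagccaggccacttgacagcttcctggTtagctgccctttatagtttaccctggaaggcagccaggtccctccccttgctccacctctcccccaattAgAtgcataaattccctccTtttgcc

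Simple letter patterns were searched for on both strands of the 250 bases before the start that the promoter table gives. TATAAA, a form of the TATA box, was found in both genes and in 12.4% of the 32851 promoters in the table. CCAAT was found in both genes and in 33.8% of promoters. TTCNNNGAA, the core letters bound by STAT factors, was found in neither gene and in 7.02% of promoters. These are matches of letters and not binding sites.

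The depth of the libraries was estimated from the steps of the FPKM values, as described with the processing, at 15748727 to 23345546 reads. By this estimate 78.1% to 84.3% of them fell on exons. Read counts given below were recovered in the same way. FPKM is the read count of a gene corrected for exon length and library depth, so levels of the 2 genes can be set side by side. Genes were called changed when the adjusted p (limma, Benjamini-Hochberg) was under 0.1 and the difference of mean log2(FPKM + 1) was at least 1 in size. By this rule 1.48% of the tested genes were called at day 25 and 2.21% at day 30. The hepatocyte marker genes were abundant in every library, with summed FPKM between 39620 and 67880, and those of lymphocytes were near 0, with sums between 1.01 and 3.15. Within these ranges the diets differed, as given below with the other markers.

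Selenbp1 was abundant in all 12 livers and was higher under CR. At day 25 its FPKM was 55.9 in Con7, 91.4 in Con8 and 68.3 in Con9, against 93.7 in CR7, 112 in CR8 and 94.5 in CR9. The 3 CR livers lay above the 3 Con livers, but the gap was narrow, since CR7 exceeded Con8 by 1.03-fold. The means were 71.9 ± 18.0 in Con and 100.2 ± 10.6 in CR (SD, n = 3), a 1.39-fold difference, and the difference of mean log2(FPKM + 1) was 0.50 with an SE of 0.22. Of all genes tested at day 25, 10.2% had their 3 CR libraries above the 3 Con libraries.

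At day 30 the same was seen with a somewhat wider gap. Selenbp1 FPKM was 82.9 in Con10, 49.9 in Con11 and 93.5 in Con12, against 139 in CR10, 125 in CR11 and 101 in CR12. The groups did not overlap, as did not those of 12.1% of all genes in this direction, and the nearest livers were 1.08-fold apart. The means were 75.4 ± 22.7 in Con and 121.6 ± 19.3 in CR (SD, n = 3), a 1.61-fold difference, or 0.72 with an SE of 0.31 on the log2(FPKM + 1) scale. Without Con11, the liver with the lowest Selenbp1, this log2 difference was 0.45. Over both days the lowest CR liver (CR7, 93.7) still lay above the highest Con liver (Con12, 93.5), although these are closer than their counting error. By FPKM, a complete separation of 6 CR above 6 Con livers was found in 3.82% of the genes tested. With every library scaled to the same total (TPM), CR9 at 226.4 lay below Con12 at 229.6, so the separation of Selenbp1 depends on the scaling.

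The day made little difference to Selenbp1. Con livers of day 30 were 1.05-fold above those of day 25 and CR livers 1.21-fold, and in both diets the days overlapped. Ordered by mean, the groups ran from Con day 25 through Con day 30 and CR day 25 to CR day 30. The neighbours in this order overlapped in the first and the last step and did not in the middle one.

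Selenbp2 behaved in the opposite way and over a much larger range. At day 25 its FPKM was 56.1 in Con7, 71.8 in Con8 and 12.4 in Con9, against 6.12 in CR7, 32.0 in CR8 and 0.592 in CR9. Every group of day 25 was spread widely, and CR8 lay above Con9, so the diets overlapped. At day 25, 18% of all tested genes had every CR library below every Con library, and Selenbp2 was not one of them. The means were 46.8 ± 30.8 in Con and 12.9 ± 16.8 in CR (SD, n = 3), 3.62-fold lower in CR. The log2(FPKM + 1) difference was -2.40 with an SE of 1.48 when the livers were taken as unpaired. Leaving out CR9 gave -1.32, and leaving out CR8 gave -3.50. With livers of the same number taken as pairs, as described below, the SE was 0.63. The labels do not give this pairing, which came from these same data, so the smaller SE does not remove the overlap.

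At day 30 there was no such overlap. Selenbp2 FPKM was 90.1 in Con10, 190 in Con11 and 135 in Con12, against 0.357 in CR10, 1.99 in CR11 and 0.713 in CR12. These values came from 3102, 6806 and 5127 reads in the Con livers, and from 14, 65 and 28 reads in the CR livers. The lowest Con liver was 45.3-fold above the highest CR liver. The means were 138 ± 49.9 in Con and 1.02 ± 0.858 in CR (SD, n = 3), 136-fold lower in CR, and the log2(FPKM + 1) difference was -6.13 with an SE of 0.46. The pseudocount of 1 makes this value smaller than the ratio of FPKM, and with a pseudocount of 0.1 it was -7.17. Only 2 of the 10593 genes had a lower difference at day 30, and 24.3% of all genes had their 3 CR libraries below the 3 Con libraries.

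**Figure D2:**
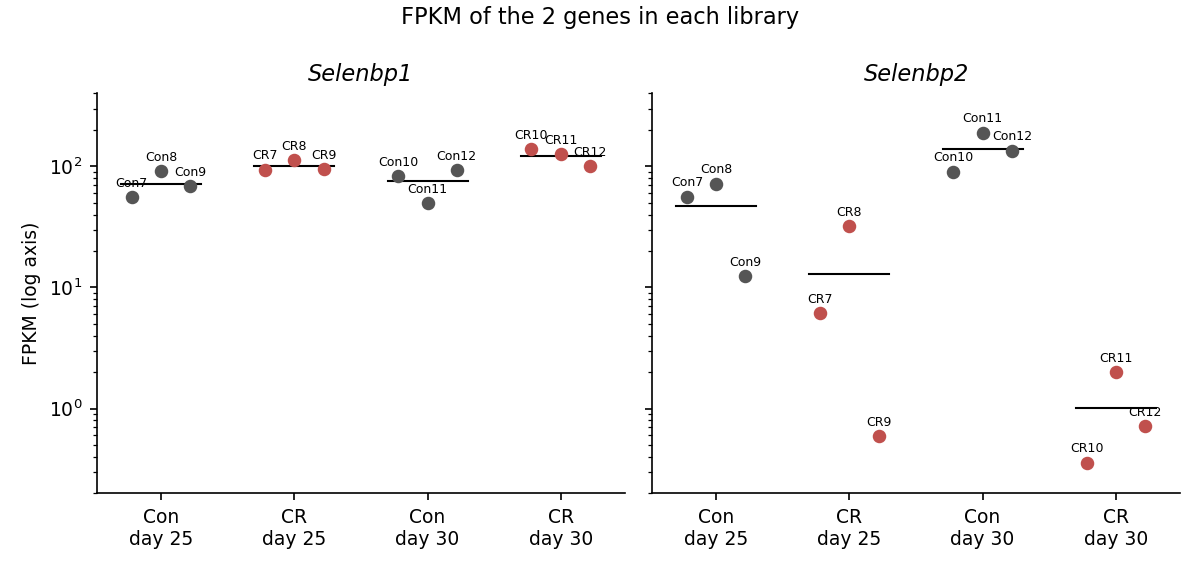
FPKM of Selenbp1 (left) and Selenbp2 (right) in each library on a log axis, grouped by diet and day. Points are single livers, with Con in grey and CR in red, and the bars are group means. Selenbp1 stays between 49.9 and 139, while Selenbp2 runs from 0.357 in CR10 to 190 in Con11.

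Levels of day 30 differed from those of day 25 in both diets. In Con livers, Selenbp2 was 2.96-fold higher at day 30 than at day 25, and the lowest liver of day 30 was 1.26-fold above the highest of day 25. Con libraries of the 2 days did not overlap in either direction for 11.6% of all genes. In CR livers the mean was 12.7-fold lower at day 30, but CR9 of day 25 (0.592) lay within the range of day 30, so the days overlapped, while 14.7% of all genes had no overlap between the days of CR. Taking both days together, Selenbp2 did not separate the 6 CR from the 6 Con livers, as 8.7% of all genes did with CR below Con. The -1.92 log2 difference between days in CR livers had an SE of 1.31, and without CR8 it was -0.82. The 1.81 log2 difference in Con livers was 1.05 without Con9. Ordered by mean, Selenbp2 ran from CR day 30 through CR day 25 and Con day 25 to Con day 30, and of the neighbours in this order only the last did not overlap. Day and diet could also be tested together over all genes, and by the rule above the CR effect differed between days in 0.00944% of them, which is 1 gene, Snord55. At an unadjusted p under 0.05 in limma, 366 of the 10593 genes passed. This is fewer than that threshold would pass on average if no gene differed.

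Selenbp2 varied widely between livers of the same group, above all at day 25. On the log2(FPKM + 1) scale its SD was 1.32 in Con and 2.19 in CR livers at day 25, and 0.53 and 0.59 at day 30. The SD pooled over the 4 groups was 1.34 for Selenbp2 and 0.326 for Selenbp1, while the median of all tested genes was 0.151. For Selenbp2, 3 of 10593 genes had a larger pooled SD, and for Selenbp1 671 did. Counting error was small beside this spread. In CR9 the 20 reads gave a 95% Poisson interval of 0.361 to 0.914 FPKM, while CR8 of the same group stood at 32.0. Such intervals cover counting error alone.

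At day 25 libraries of the same number were treated as pairs, as described with the processing, although the labels do not tie them together. Selenbp2 was higher in the Con than in the CR liver of each number, 9.18-fold for number 7, 2.24-fold for number 8 and 20.9-fold for number 9. Selenbp1 was higher in the CR liver of each number, by 1.68-fold, 1.23-fold and 1.38-fold in the same order. In both diets Selenbp2 was highest in number 8 and lowest in number 9. On the log2(FPKM + 1) scale the paired difference of Selenbp2 was -1.14 for number 8 and -3.07 for number 9, with number 7 between them. The mean was -2.40 with an SE of 0.63, and -3.04 to -2.07 with 1 pair left out. Those of Selenbp1 had a mean of 0.50 with an SE of 0.13, and 0.38 to 0.60 with 1 pair left out. CR8 and Con9, the livers through which the diets overlapped at day 25, carry different numbers. Whether the numbers mark true pairs was not tested, so the overlap stands as a limit.

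Because the 2 genes moved in opposite directions, the share of Selenbp2 in their summed FPKM changed more than the sum. Selenbp2 made up 36.5% ± 18.6 of the sum in Con livers of day 25 and 9.64% ± 11.2 in CR livers (SD, n = 3). At day 30 it made up 63.5% ± 14.1 in Con and 0.840% ± 0.662 in CR (SD, n = 3). In Con11 the share reached 79.2%, where Selenbp2 was 3.81 times the FPKM of Selenbp1. Selenbp2 was therefore the more abundant of the pair in all 3 Con livers of day 30, and in Con7 of day 25 the 2 genes were level at 56.1 and 55.9 FPKM. In all 6 CR livers Selenbp1 was the more abundant.

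The sum itself is of use because reads counted for the wrong member of the pair leave it nearly as it was. It was 119 ± 41.7 in Con and 113 ± 27.2 in CR at day 25 (SD, n = 3), with overlapping ranges. At day 30 it was 214 ± 35.8 in Con and 123 ± 19.2 in CR (SD, n = 3). The sum ran from 173 to 240 in Con livers of day 30 and from 101 to 139 in CR livers, without overlap. On the log2(FPKM + 1) scale the sum differed by -0.03 at day 25 and by -0.80 at day 30.

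The deepest CR values also show how far Selenbp1 reads could have reached Selenbp2. In CR10, Selenbp1 stood at 139 FPKM and Selenbp2 at 0.258% of that value. In CR9 and CR12 Selenbp2 was at 0.626% and 0.708% of Selenbp1, and in CR11 at 1.58%. If reads of Selenbp1 were counted for Selenbp2 at all, they made up no more than this share in these libraries. The 21.3% of windows that are the same in both genes (19.3% inside 1 exon) is not an expected value for this share. Those are single windows, while the reads were paired. For the reverse, Selenbp2 reads counted for Selenbp1, the limit is looser. Con11 had the highest Selenbp2 and the lowest Selenbp1 of all 12 livers, and there Selenbp1 stood at 0.263 times the FPKM of Selenbp2.

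**Figure D3:**
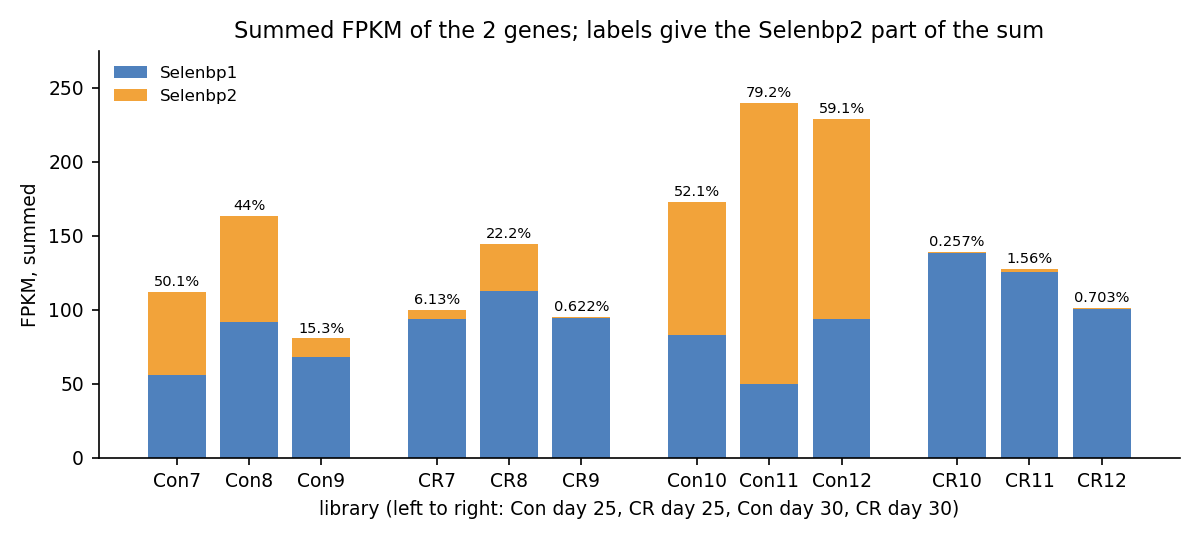
Summed FPKM of the pair in each library, with Selenbp1 in blue and Selenbp2 in orange stacked on a linear axis from 0. The label over each bar is the Selenbp2 share of the sum, which falls to between 0.257% and 1.56% in the CR livers of day 30 and lies between 52.1% and 79.2% in the Con livers of that day.

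Few selenium-related genes were called beside the pair. Selenoproteins, which do carry selenocysteine, were present with 19 of 24 listed genes past the filter. None was called at day 25, and at day 30 none was called higher and 1 lower, beside 0.925% and 1.28% of all genes. Their median log2(FPKM + 1) difference was -0.01 at day 25 and -0.03 at day 30, near the medians of all genes, -0.04 and -0.07. Dio1, the deiodinase that activates thyroid hormone in liver, was the gene called, with 62.2 ± 20.3 FPKM in Con and 31.4 ± 17.8 in CR (SD, n = 3). Its difference was -1.09 (limma adjusted p = 0.0711). The call was lost without the filter, in a fit of the day 30 groups alone, and without CR10 (-0.61), CR12 (-1.16), Con10 (-1.13) or Con11 (-0.84).

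The most abundant selenoproteins stayed close to level. Selenop, the plasma protein that carries selenium out of the liver, had a log2 difference of -0.04 at day 25 and 0.03 at day 30. Gpx1, a glutathione peroxidase, had 0.11 and 0.14. Sephs2, which makes the selenium donor for selenocysteine, had 0.00 and -0.10, and Msrb1, a methionine sulfoxide reductase, had 0.19 and -0.02. None of these 4 passed the limma threshold at either day.

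Among 10 genes of selenocysteine synthesis and selenium handling, 9 were tested, and 1 was called higher at day 30 and none at day 25. It was Inmt, a methyltransferase that also methylates selenium compounds, with 367 ± 58.7 FPKM in Con and 806 ± 283 in CR at day 30 (SD, n = 3). Its difference was 1.09 (limma adjusted p = 0.0188), and at day 25 it fell just short of the limit of 1 (limma adjusted p = 0.0398). It was called at day 25 with median-ratio scaling (1.06), a pseudocount of 0.1 or voom (both 1.00), and without CR9 (1.24) or Con8 (1.22). The call at day 30 was lost without CR11, at 0.82, or without Con10, at 0.97. The median of the list was -0.06 at day 25 and -0.05 at day 30.

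All 14 genes of a list for the oxidation of sulfur compounds and the products of methanethiol were tested. The list also holds enzymes of methionine, cysteine and taurine metabolism that do not oxidize sulfur compounds, Cbs and Csad among them. None was called at day 25 and 1 was called lower at day 30, with list medians of -0.12 and -0.01. Csad, an enzyme of taurine synthesis, was 156 ± 55.4 FPKM in Con and 30.0 ± 27.6 in CR at day 30 (SD, n = 3), a log2 difference of -2.70 (limma adjusted p = 0.00515). At day 25 it was 156 ± 42.2 in Con and 117 ± 25.4 in CR. Sqor, the sulfide oxidase listed as Sqrdl, differed by 0.66 at day 30 (limma adjusted p = 0.00553), which did not reach the limit of 1. Ethe1 differed by -0.65, Cbs by -0.62 and Suox by -0.48, likewise short of it (limma adjusted p = 0.0381, 0.00344 and 0.0102). Of the 14 genes, 7 had a positive and 7 a negative difference at day 30.

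Selenbp2 is itself one of the genes known to be higher in male liver, so a list of 18 other male-biased liver genes was set beside it. Of these 17 were tested. At day 25, 10 were called lower and none higher, and at day 30 all 17 tested were called lower, beside 0.642% and 1.28% of all genes called lower. Without CR9, without Con8 or without the filter, 6 were called at day 25. At day 30, 13 to 17 were called with 1 library left out. The median difference was -1.30 at day 25 and -2.28 at day 30. Earlier results of these libraries were known when the list was drawn up, so the counts are a description.

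Serpina1e, a serine protease inhibitor of the alpha-1 antitrypsin family, came closest to Selenbp2 in size, with -2.71 at day 25 (limma adjusted p = 0.0940) and -6.51 at day 30. Its FPKM at day 30 was 3244 ± 688 in Con and 57.5 ± 58.4 in CR (SD, n = 3). The call at day 25 was lost under 7 of the other settings. Elovl3, a fatty acid elongase, differed by -1.57 and -3.94, and Cyp4a12b, a fatty acid hydroxylase, by -2.20 and -3.47. Mup20 and Mup21 encode urinary pheromone carriers of the Mup family. The difference of Mup20 was -2.76 at day 25 and -4.40 at day 30, and that of Mup21 was -3.36 and -4.32. Genes of the Mup and Cyp4a12 families are close copies of one another, so their single values are uncertain.

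**Figure D4:**
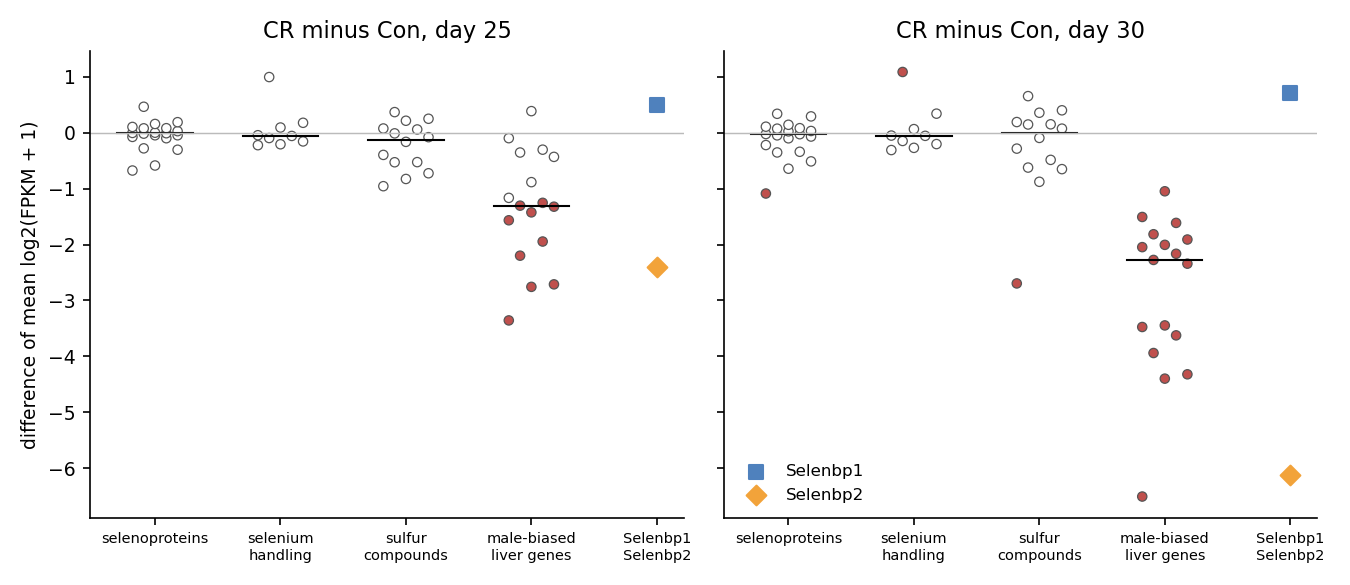
Difference of mean log2(FPKM + 1) between CR and Con for every tested gene of 4 lists at day 25 (left) and day 30 (right), with Selenbp1 as a blue square and Selenbp2 as an orange diamond. Filled circles were called in limma, open circles were not, and bars are list medians. Selenbp2 at -6.13 on day 30 lies with the lowest of the male-biased genes and below every selenoprotein.

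Livers with little Selenbp2 within a group also had low values of many male-biased genes. In Con livers of day 25, 15 of the 17 genes were lowest in Con9, the liver that was lowest for Selenbp2, as were 37.3% of all tested genes. In CR livers of day 25, 15 of 17 were lowest in CR9, with 36.3% of all genes. At day 30, 11 of 17 were lowest in Con10 and 14 of 17 in CR10, with 30.8% and 40.4% of all genes. The liver with the most Selenbp2 was shared by 9 and 12 of the 17 at day 25 and by 14 and 16 at day 30, Con before CR. The corresponding shares of all genes were 50.2%, 42.4%, 32.3% and 45.5%. These genes were read from the same libraries as Selenbp2, and no test was made.

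The genes whose profiles were most like that of Selenbp2 were mostly of the Mup family. Likeness was measured as the root mean square difference between profiles of log2(FPKM + 1) over the 12 libraries, after each profile was centred on its own mean. The 5 nearest of 10592 genes were Mup14 at 0.928, Mup7 at 0.961, Mup21 at 0.975, Mup20 at 1.03 and Gm2083 at 1.05, while the profile of Selenbp2 itself had a root mean square of 2.57. Mup14 ran from 122 ± 53.4 FPKM in Con to 8.07 ± 7.56 in CR at day 25, and from 125 ± 26.5 to 0.909 ± 0.833 at day 30 (SD, n = 3). Unlike Selenbp2, its Con mean was nearly the same on both days. All 5 genes were called lower at both days. Selenbp1 stood at place 10297 in this order.

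Selenbp1 had close companions of another kind. The nearest were Acy1 at 0.117, Rpl39 at 0.168, Khk at 0.170, Aldh1l1 at 0.174 and Prodh at 0.179, against a root mean square of 0.416 for Selenbp1. Acy1 frees amino acids from their acetyl form, Khk starts fructose breakdown, Aldh1l1 belongs to folate metabolism, and Prodh begins proline breakdown. Acy1 ran from 20.8 ± 3.79 FPKM in Con to 29.4 ± 2.13 in CR at day 25 and from 20.4 ± 4.40 to 32.6 ± 4.93 at day 30 (SD, n = 3). Its log2 difference was 0.49 (limma adjusted p = 0.0963) and 0.66 (limma adjusted p = 0.0218), short of the limit of 1. None of the 5 reached that limit at either day. Like Selenbp1, these genes had low values in Con7 and Con11. Small profiles are near one another by construction, and of 10592 genes Selenbp2 was at place 10588.

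**Figure D5:**
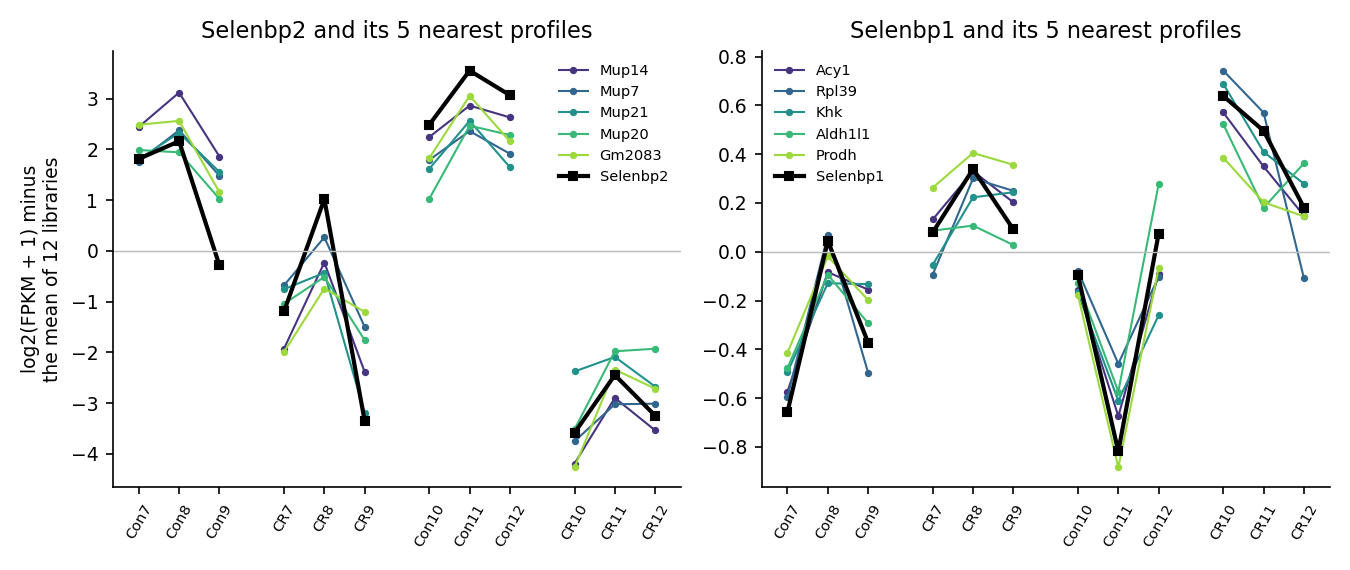
Profiles over the 12 libraries of Selenbp2 (left) and Selenbp1 (right) in black and of the 5 genes nearest to each in colour. The y axis is log2(FPKM + 1) minus the mean of the gene over the 12 libraries, the scales of the panels differ, and lines join libraries of 1 group only to guide the eye. Selenbp2 and the Mup genes are low in the CR livers, and Selenbp1 and its neighbours are low in Con7 and Con11.

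The genes around the pair on the chromosome were also measured. Of 24 other genes within 250 kb of either member, 15 were tested, and 0 were called at day 25 and at day 30 in limma. Their log2 differences ran from -0.81 to 0.53 at day 25 and from -0.80 to 0.20 at day 30. With a pseudocount of 0.1 or with voom on recovered reads, Rfx5 was called lower at both days. Cgn was then called lower at day 30 under both settings and at day 25 with voom. The gene nearest to Selenbp1 was Rfx5, a transcription factor of MHC class II genes, 10.3 kb away, at -0.81 (limma adjusted p = 0.00138) and -0.77 (limma adjusted p = 0.00086). Pi4kb, a lipid kinase, had -0.01 and 0.06, and Psmb4, a proteasome subunit, had 0.05 and 0.20. Near Selenbp2, Tuft1 differed by -0.25 and -0.54 and Snx27, a sorting nexin, by -0.03 and -0.04. Cgn, a tight junction protein that lies between the members, had -0.81 (limma adjusted p = 0.00195) and -0.80 (limma adjusted p = 0.000952).

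Markers of other liver cells are given beside the pair, and their part in the result was not tested. None of 8 macrophage, 7 endothelial, 6 stellate and 2 cholangiocyte genes tested was called at either day, and none of 7 lymphocyte genes passed the filter. The lymphocyte markers summed to 1.91 to 2.59 FPKM in Con and 1.01 to 1.21 in CR at day 25. At day 30 they summed to 2.29 to 3.15 and 1.23 to 1.9, so the diets did not overlap at either day. Summed FPKM of the macrophage markers was 40.5 to 69.8 in Con and 26.3 to 34.6 in CR at day 25, and 37.0 to 54.1 and 35.9 to 48.8 at day 30. Stellate cell markers summed to 50.1 to 61.9 in the Con livers of both days and to 66.1 to 81.5 in the CR livers. Most of each sum was Dcn, with mean FPKM of 46.6 in Con and 52.5 in CR at day 25. Its means at day 30 were 43.4 and 58.6. Endothelial markers summed to 32.9 to 50.1 in Con and 41.9 to 50.9 in CR. Hepatocyte markers summed to 47490 to 54210 in Con and 53720 to 57350 in CR at day 25. At day 30 they summed to 39620 to 48550 and 56470 to 67880, without overlap, and most of each sum was Alb. Of the 10 hepatocyte markers, Tat, an enzyme of tyrosine breakdown, was called higher at both days and none was called lower.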

How the data were processed

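Liver RNA of 12 mice was sequenced as paired-end reads of 100 bases on a single lane. Per the study's methods and the submitters' processing notes, the authors used CASAVA 1.8.2 and FastQC, mapped reads to mm10 with BWA, and tested differential expression with DESeq2. The authors deposited FPKM values, which HOMER computed over exons for a single transcript of each gene, unscaled between libraries.

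The 2 genes and all gene lists were chosen with earlier results of these data known. Genes were named by a fixed rule: list members called at either day (at most 4 per list and day), the 4 most abundant selenoproteins, called or else the nearest 3 tested genes within 250 kb, and the 5 nearest profiles. Other genes (Sqor, Ethe1, Cbs, Suox, Dcn, Alb, Tat, Snord55) were named after their values were seen. An item under the rule is not reported here. Values of log2(FPKM + 1) were fitted for 10593 genes (FPKM 1 or more in 3 or more libraries) with limma 3.58.1 (R 4.3.3) in 1 model of the 4 groups with a trend on expression, 2-sided, with Benjamini-Hochberg adjustment over all genes. The model was tested on simulated data. An adjusted p under 0.1 and a log2 difference of at least 1 made a call. Testing 1 gene by exact permutation of 3 against 3 samples cannot give a p below 0.1. The labels number the samples of a group, and p-values measure the spread between them.

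Whole reads were recovered from the FPKM steps. Between 99.8% and 100% of the checked values in a library came out whole within 0.001 of a read beyond what the rounding of FPKM allows. Voom on these reads called 302 genes at day 25 and 422 at day 30. The estimated depth of 15748727 to 23345546 reads limits genes with few reads. Columns were matched to samples by name. The labels of the Con mice of day 30 do not tell them apart, so their columns were assigned to the group only. At day 25, same-numbered Con and CR mice deviated together (correlations 0.106 to 0.368, mean 0.26), so their numbers were taken to pair them. The mean of -0.131 for different numbers is no separate support, since deviations from a group mean cancel out within that group. The pairing comes from the data and was not tested, since the labels give no shared litter or day.

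Transcripts and exons were from GENCODE M21 and promoters from RefSeq (GRCm38.p6), both matched by symbol for 2 of 2 genes, and aligned with Biopython 1.88. Protein sequences were not used here. Other settings were tried for the scaling, the filter, the pseudocount, the groups in the model, voom, the replicate block and single libraries left out. Those for differences between days, for the sum of the 2 genes and for their paired differences were chosen after seeing the data. Python 3.11.15 was used with numpy 2.4.6, pandas 2.3.3 and matplotlib 3.10.9.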

Additional observations from a re-analysis of the deposited data

Results flagged for a closer look

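The CR effect on Snord55, a small nucleolar RNA, differed between the days, with a log2(FPKM + 1) difference of 1.25 at day 25 and -0.43 at day 30. The difference between these was -1.68 (limma adjusted p = 0.0833 for the interaction over all genes tested). Its FPKM was listed at 0 in all 3 Con libraries of day 25 and was 1.23 to 1.65 in CR. At day 30 it was 0.634 to 1.83 in Con and 0.556 to 0.668 in CR. For so short an RNA these values stand on only a few reads in each library, so the call lies near the floor. The call was lost without a filter, with quantile normalization and with voom, and on leaving out any 1 of 9 of the 12 libraries, CR9, Con10 and Con11 being the exceptions.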

How the results depend on the processing

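Selenbp1 and Selenbp2 kept the direction of their CR difference at both days under every scaling, pseudocount, voom and left-out library. The difference of Selenbp2 at day 30 was -6.72 with TPM, -7.17 with a pseudocount of 0.1 and -7.41 with voom on recovered reads, against -6.13. The construction of the log scale shows the cause, since the pseudocount weighs on values near 0. With 1 library left out it was -6.45 to -5.87 at day 30 and -3.50 to -1.32 at day 25, and that of Selenbp1 was 0.45 to 0.90 and 0.33 to 0.68. Between days in Con mice, Selenbp1 differed by 0.05, which turned to -0.12 without Con7, -0.04 without Con10 and -0.13 without Con12 (range -0.13 to 0.32). The other differences between days kept their sign.

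Genes called at day 25 were 157, and 276 with a pseudocount of 0.1 and 302 with voom. At day 30 they were 234, 385 and 422. With 1 library left out they were 137 to 170 and 202 to 286. The CR effect differed between days in 1 gene, in 2 with a pseudocount of 0.1, in 0 without a filter, with quantile normalization or with voom, and in 0 to 4 with 1 library left out (4 without CR9). At day 25, higher and lower calls were 89 and 68, but 111 and 110 with TPM, 126 and 150 with a pseudocount of 0.1 and 134 and 168 with voom. At day 30 they were 98 and 136, but 117 and 108 with median-ratio scaling. The replicate block at day 25 gave 171 calls, 99 higher and 72 lower, and changed the call of no named gene. Day 30 allowed no block because the Con columns carry no number that the labels tie to a mouse. Male-biased genes called lower at day 25 were 10, and 6 without a filter, without CR9 or without Con8. At day 30 they were 17, and 13 to 17 were called with 1 library left out.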

Other observations

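Genes known to be higher in female liver were also listed. Of 20 such genes 14 were tested, and 7 were called higher at day 25 and 11 at day 30, with none called lower, beside 0.84% and 0.925% of all genes called higher. Their median log2(FPKM + 1) difference was 1.05 and 1.93. Cyp2b9, a cytochrome P450, was 0.207 ± 0.238 FPKM in Con and 43.9 ± 21.4 in CR at day 25, and 0.132 ± 0.0969 and 148 ± 42.0 at day 30 (SD, n = 3).

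Of 24 PPARalpha target genes, which serve fat oxidation in the fasted liver, none was called at day 25. At day 30, 1 was called higher, Pdk4, an inhibitor of pyruvate oxidation, at 1.03 (limma adjusted p = 0.0304). The call was lost without CR10 (0.94), CR12 (0.89) or Con11 (0.93). Other settings added lower calls to the list at day 30, with 1 higher and 2 lower under quantile normalization or without Con12, and 1 and 1 with TPM or without CR11 or Con10. Without CR10, 1 was called lower and none higher. The list medians were -0.04 at day 25 and -0.10 at day 30.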
